A study of Drosophila melanogaster with 18 samples.

Results

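The stably transfected lines compared here were a Drosophila melanogaster DL1 line carrying an inducible FLAG-IntS6 transgene and a DL1 line carrying an inducible FLAG-IntS12 transgene. Both were grown without copper, so neither transgene had been induced, and both were set against untransfected parental DL1 cells, also without copper. The 6 libraries of the lines, replicates A, B and C of each, were chosen by their titles and pooled with equal weight for each line. Their titles name the transgene, whereas their genotype label reads WT. The other side was 3 parental libraries, again A, B and C, so that 9 of the 18 libraries of the series entered the comparison. All cells grew at 25 °C in Schneider's medium, for 3 d after seeding. Each line was made by transfecting a plasmid with the transgene under the MtnA promoter and was kept as a population under 5 µg/mL puromycin. The labels describe 1 such population per transgene, do not say that parental cells were selected, and do not say whether puromycin was present during the 3 d of growth. Transfection, selection, passage and any transgene expression without copper cannot be told apart in this design. The other 9 libraries came from the same lines and from parental cells with 500 µM copper sulfate in the last 24 h, and they are used here only to read the same line difference in separate libraries. The labels call the replicates of each kind of cell biological sets without saying how they were made, so the p-values measure the spread between these libraries.

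DL1 is a Drosophila cell line of embryonic, macrophage-like origin. Integrator is a large metazoan complex that binds paused RNA polymerase II. One of its modules is an RNA endonuclease that cleaves nascent RNA, and another recruits protein phosphatase 2A. IntS6 belongs to the phosphatase module, and IntS12 is one of the smaller subunits. The MtnA promoter belongs to a metallothionein gene that is switched on by copper, which is why it is widely used for inducible expression in fly cells. Puromycin blocks translation, and cells that keep a resistance gene survive it. A population of survivors can differ from its parent in genes that have nothing to do with the transgene.

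Values are in CPM, a gene's deposited count relative to the total of its library, with totals scaled by edgeR, and CPM is not divided by gene length, so levels are compared between libraries and not between genes. Fold changes are log2 values, lines over parental, with a standard error (SE), and a gene is called where edgeR's quasi-likelihood test gave a Benjamini-Hochberg adjusted p under 0.05 over all 8174 tested genes. The 9 libraries held 13217764 to 17026752 counts each, of which genes named for ribosomal RNA took 70.9% to 72.9%, leaving 3833871 to 4939816 counts of other genes. Parental library C stood apart from the other 8 on the first principal component (18.1% of variance), at 19.4 against −11.8 to 8.5. On the second component (14.9%), the 3 groups did not overlap. The IntS6 line lay at 5.2, 11 and 13.2, the IntS12 line at −3.3, 1.2 and −1.4, and parental cells at −13.3, −7.8 and −4.9. In bulk RNA, fewer cells expressing a gene and less RNA per cell cannot be told apart.

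Counts of the gene that each transgene carries were higher in its own line already without copper, by far less than with copper. IntS6 stood at 69.9, 75.5 and 68.9 CPM in the IntS6 line and 31.3, 31.9 and 30.8 CPM in the IntS12 line, against 26.3, 29.0 and 28.7 CPM in parental cells. Every library of its own line was above every other library, and the IntS12 line was just above parental cells without overlap. IntS6 was 2.55-fold higher in its own line (log2 fold change 1.35, SE 0.07, adjusted p = 1.31e-10), whereas the difference of the IntS12 line from parental cells was not called (0.16, SE 0.08, adjusted p = 1.0). The pooled IntS6 difference of 0.76 (SE 0.07, adjusted p = 7.11e-07) averages unlike lines, and it was not called when both lines were fitted as 1 group (adjusted p = 0.707). With copper, the IntS6 line had 2330, 2560 and 2220 CPM, against 35.3, 38.0 and 35.6 CPM in parental cells with copper. IntS12 stood at 4.34, 4.52 and 3.8 CPM in the IntS6 line and 7.11, 8.53 and 9.69 CPM in the IntS12 line, against 5.52, 4.92 and 4.5 CPM in parental cells. The IntS12 line was highest in all 3 of its libraries, and the IntS6 line overlapped parental cells. With copper, the IntS12 line had 94.6, 88.4 and 95.6 CPM of it, against 3.98, 3.52 and 3.37 CPM in parental cells with copper. Without copper, its excess in its own line was 1.68-fold (0.75, SE 0.13, adjusted p = 0.0366). That call was lost without parental library A, B or C (adjusted p of 0.068, 0.133 and 0.165), without IntS12 line library B or C (0.303 and 0.269) and without IntS6 line library B (0.0506), and also when only the libraries compared were fitted (0.101). The counts do not separate transgene from endogenous transcripts, and those of the puromycin resistance gene were not analysed here. MtnA itself, whose promoter drives both transgenes, stood at 2.82, 3.39 and 2.85 CPM in the IntS6 line and 3.05, 3.13 and 2.83 CPM in the IntS12 line, against 3.22, 2.65 and 2.69 CPM in parental cells, with no call (0.08, SE 0.25, adjusted p = 1.0).

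Few genes separated the lines from parental cells. Of 8174 tested genes, 11 were called (0.135%), 9 of them higher in the lines (0.11%) and 2 lower (0.0245%). At an unadjusted p under 0.05 there were 285 genes (3.49%), 146 higher (1.79%) and 139 lower (1.7%). The higher genes were ds, LamC, zld, ringer, IntS6, CG4842, CG33509, CG7781 and CR14033, and the lower ones were Tmtc2 and CG31601. The named-gene rule, which asks for at least 5 CPM and no overlap between the groups, gave IntS6, ds, LamC, zld, CG33509 and CR14033. The other 5 are named because the list is short, and that choice was made after their values were seen. All 6 line libraries lay above all 3 parental libraries in 95 tested genes (1.16%) and below them in 91 (1.11%). Leaving out 1 library at a time left 5 to 8 genes called higher and 1 to 3 called lower, with the fewest higher calls (5) without IntS12 line library B or C. A single lower call was left without IntS12 line library B or C and without IntS6 line library B or C, and 3 were made without parental library B or IntS6 line library A.

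**Figure D1:**
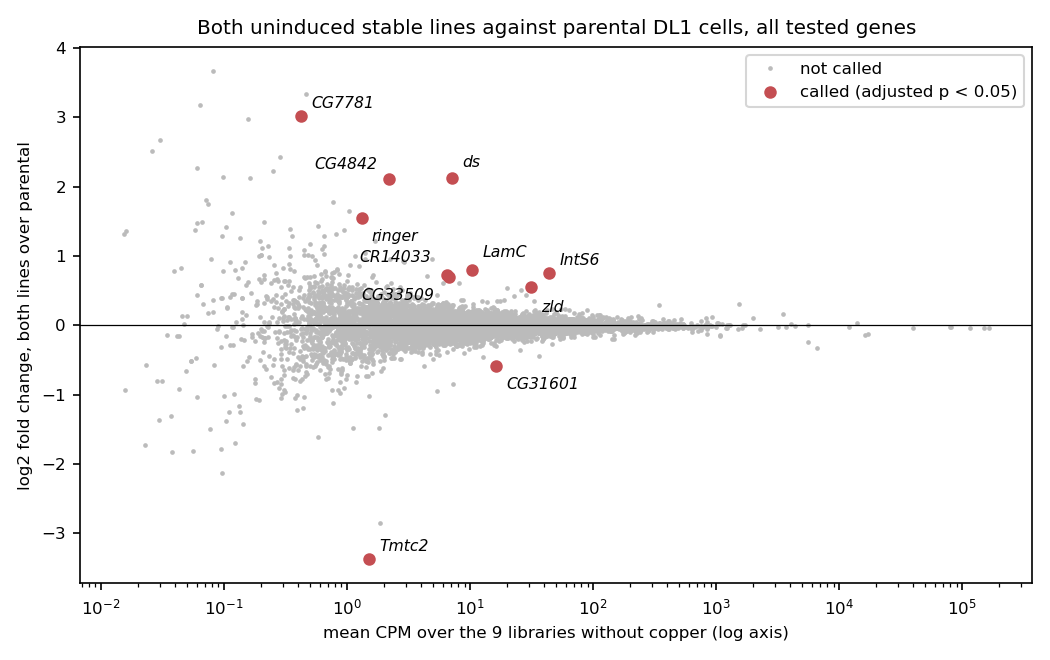
Log2 fold change of both uninduced lines over parental DL1 cells (vertical axis) against mean CPM over the 9 libraries without copper (horizontal log axis) for the 8174 tested genes. Red points are the 11 called genes, from −3.37 for Tmtc2 to 3.01 for CG7781, and grey points are genes that were not called.

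The rest of the transcriptome lay close to parental cells. The median log2 fold change over tested genes was −0.003, and 87.5% of genes were within 0.25 of 0 in either direction. The median SE was 0.11, and the 95% interval of the difference lay wholly within 2-fold for 7455 genes (91.2%) and within 1.5-fold for 6437 (78.7%). Among the 4169 genes with a mean of at least 10 CPM, 99.4% had an interval within 1.5-fold. Genes past 2-fold numbered 52 higher, of which 4 were called, and 32 lower, of which 1 was called. Of these 84 genes, 72 had a mean under 1 CPM and none a mean of 10 CPM or more. Most estimates of this size therefore rest on few counts, and those not called cannot be told apart from spread between libraries.

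Only Tmtc2 and ds were called in the pooled comparison and also in each line by itself. Tmtc2 belongs to a family of membrane proteins whose mammalian relatives attach O-linked mannose to cadherins. It is annotated on chromosome 2L from 922793 to 958098, on the plus strand. It stood at 0.0723, 0.2 and 0.204 CPM in the IntS6 line and 0.734, 0.8 and 0.637 CPM in the IntS12 line, against 2.96, 3.66 and 4.28 CPM in parental cells. Every line library was below every parental one, and the IntS6 line was below the IntS12 line. These levels rest on 1, 3 and 3 counts in the IntS6 line and 13, 12 and 9 in the IntS12 line, against 45, 58 and 59 in parental cells. Tmtc2 was 10.3-fold lower in the pooled lines (log2 fold change −3.37, SE 0.29, adjusted p = 7.11e-07). It fell by 4.43 in the IntS6 line and by 2.31 in the IntS12 line (adjusted p of 1.69e-06 and 0.00134), and the difference between the lines missed the threshold (−2.12, adjusted p = 0.463).

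The gene ds (dachsous) encodes a very large atypical cadherin, which binds the cadherin Fat on neighbouring cells and acts in planar cell polarity and in Hippo growth control. It lies on chromosome 2L from 640013 to 714983, on the minus strand. Its levels were 9.4, 13.7 and 12.2 CPM in the IntS6 line and 4.34, 9.2 and 8.35 CPM in the IntS12 line, against 1.38, 1.96 and 3.05 CPM in parental cells. The 3 groups did not overlap, and all 6 line libraries were above the highest parental one. ds was 4.37-fold higher in the pooled lines (2.13, SE 0.27, adjusted p = 0.000232), by 2.48 in the IntS6 line (SE 0.29, adjusted p = 4.77e-05) and by 1.77 in the IntS12 line (SE 0.31, adjusted p = 0.033). The pooled call held in all 16 alternatives tried. The call in both lines did not hold without parental library A or B, IntS12 line library B or C or IntS6 line library B, nor when only the libraries compared were fitted, each of which left 0 genes called higher in both lines.

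**Figure D2:**
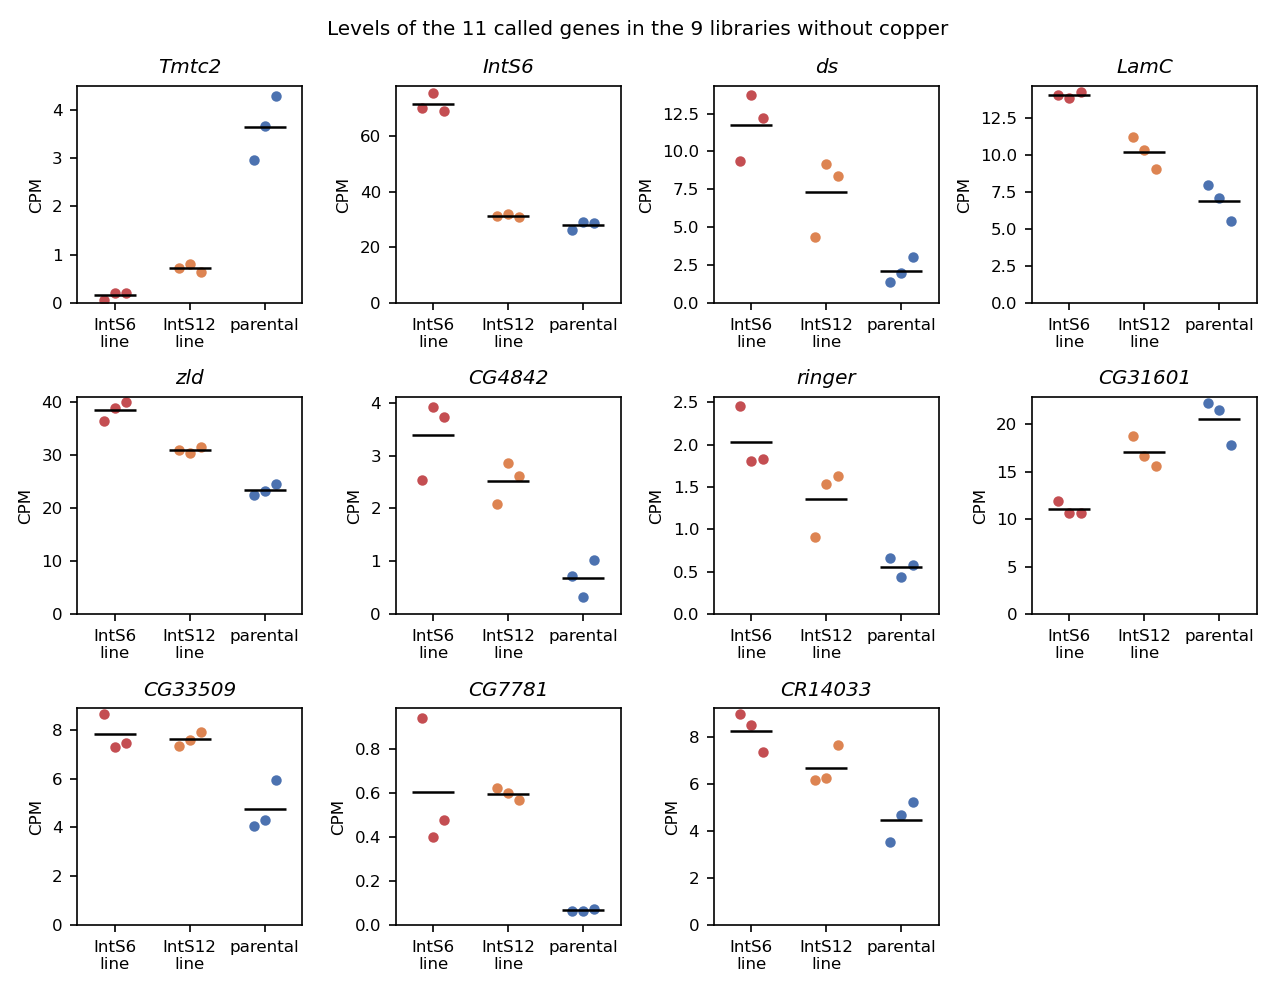
Level in CPM (vertical axes, from 0) of each of the 11 called genes in the 3 libraries of the IntS6 line, the IntS12 line and parental cells, all without copper; points are libraries and black lines are group means. The line libraries lie wholly to one side of the parental ones in 10 of the 11 panels, the exception being CG31601.

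Another 3 called genes have a known function. LamC encodes the fly A-type lamin, an intermediate filament protein of the nuclear lamina, on chromosome 2R from 14570810 to 14575771. It stood at 14.0, 13.8 and 14.2 CPM in the IntS6 line and 11.2, 10.3 and 9.05 CPM in the IntS12 line, against 7.95, 7.07 and 5.52 CPM in parental cells. The 3 groups did not overlap, and the IntS12 line lay between the other groups. LamC was 1.74-fold higher in the pooled lines (0.80, SE 0.10, adjusted p = 0.000232), by 1.03 in the IntS6 line (adjusted p = 2.91e-05) and by 0.57 in the IntS12 line, where it missed the threshold (adjusted p = 0.0875). zld encodes Zelda, the zinc-finger pioneer factor that opens chromatin at zygotic genome activation in the fly embryo, on chromosome X from 19766465 to 19783548. Its levels were 36.4, 38.9 and 40.1 CPM in the IntS6 line and 31.0, 30.4 and 31.5 CPM in the IntS12 line, against 22.5, 23.3 and 24.6 CPM in parental cells. As for LamC, the groups were in the same order with no overlap. zld was 1.47-fold higher in the pooled lines (0.56, SE 0.08, adjusted p = 0.00148), with 0.72 in the IntS6 line (adjusted p = 0.000169) and 0.40 in the IntS12 line (adjusted p = 0.223). LamC and zld kept their pooled calls in all 16 alternatives.

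The gene ringer encodes a protein of the TPPP family, which promotes tubulin polymerization. It lies on chromosome 3L from 16354746 to 16359428, and stood at 2.46, 1.8 and 1.83 CPM in the IntS6 line and 0.903, 1.53 and 1.63 CPM in the IntS12 line, against 0.657, 0.442 and 0.581 CPM in parental cells. All 6 line libraries were above the parental ones. ringer was 2.91-fold higher in the pooled lines (1.54, SE 0.28, adjusted p = 0.0183). Its call was lost without parental library A, B or C (adjusted p of 0.0632, 0.159 and 0.09) and without IntS12 line library B or C (0.0618 and 0.0663), and also with only the libraries compared (0.0516) or both lines as 1 group (0.0929).

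The other called genes have no function given here. CG4842, on chromosome 3L from 16368389 to 16369518, stood at 2.53, 3.93 and 3.74 CPM in the IntS6 line and 2.09, 2.87 and 2.62 CPM in the IntS12 line, against 0.723, 0.315 and 1.02 CPM in parental cells. Its lowest line library was above the highest parental one, and it was 4.31-fold higher in the pooled lines (2.11, SE 0.33, adjusted p = 0.00239), a call that held in all 16 alternatives. CG33509, on chromosome 2L from 21084605 to 21086506, had 8.67, 7.32 and 7.47 CPM in the IntS6 line and 7.34, 7.6 and 7.92 CPM in the IntS12 line, against 4.07, 4.29 and 5.95 CPM in parental cells. Both lines were at one level, above parental cells without overlap, with a pooled difference of 1.62-fold (0.70, SE 0.13, adjusted p = 0.031). CR14033 is annotated as a pseudogene, on chromosome 2L from 5242699 to 5244239, and 10.3% of its exon bases overlap an exon on the other strand, so its reads may be shared where strand was not used in counting. It stood at 8.96, 8.52 and 7.34 CPM in the IntS6 line and 6.15, 6.27 and 7.64 CPM in the IntS12 line, against 3.55, 4.67 and 5.23 CPM in parental cells, without overlap between lines and parental cells (0.73, SE 0.15, adjusted p = 0.0485). CG7781, on chromosome 2L from 8321280 to 8325409, rested on 13, 6 and 7 counts in the IntS6 line and 11, 9 and 8 in the IntS12 line, against 1 in each parental library. With 54 counts in the lines and 3 in parental cells, the depth-adjusted ratio was 8.93, with a 95% counting interval of 2.9 to 44.6 (pooled adjusted p = 0.0485). The annotated start of CG7781 lies inside the span of strat, from 8320328 to 8321285. strat averaged 49.1 CPM in the lines and 41.9 CPM in parental cells, without overlap, and was not called (0.23, SE 0.06, adjusted p = 0.214). Whether reads were shared between these genes was not tested.

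CG31601, on chromosome 2L from 22040727 to 22043877, was the second gene called lower. It stood at 11.9, 10.6 and 10.7 CPM in the IntS6 line and 18.8, 16.7 and 15.6 CPM in the IntS12 line, against 22.3, 21.5 and 17.8 CPM in parental cells. IntS12 line library A was above parental library C, so the groups overlapped, while every library of the IntS6 line was below all others. The pooled difference was 1.5-fold (−0.58, SE 0.11, adjusted p = 0.0191), with −0.90 in the IntS6 line (adjusted p = 0.000706) and −0.27 in the IntS12 line (adjusted p = 1.0). The pooled call did not hold without parental library A or B (adjusted p of 0.231 and 0.159), IntS12 line library B or C (0.0654 and 0.0736) or IntS6 line library B or C (0.0701 and 0.0605), nor with both lines as 1 group (0.433) or library sizes alone (0.0662). CG33509 was not called without parental library A or B (0.367 and 0.231), IntS12 line library A, B or C (0.053, 0.0723 and 0.0736) or IntS6 line library A or C (0.0993 and 0.0568). CG7781 was not called without parental library A, B or C (0.286, 0.231 and 0.2), IntS12 line library A, B or C (0.101, 0.0896 and 0.0736) or IntS6 line library A or C (0.123 and 0.0605), nor by DESeq2 (0.206). CR14033 was not called when any 1 of the 9 libraries was left out, with adjusted p of 0.0568 to 0.509, nor with both lines as 1 group (0.0768).

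All 11 called genes lay on the same side of parental cells in both lines, and the IntS6 line was the further one in 10 of them, the lines being equal for CG7781 (3.01 in both). The 11 were called on the mean of both lines in these same libraries, so agreement of side was partly built into the choice. By itself, the IntS6 line gave 17 calls against parental cells (0.208%), 15 higher (0.184%) and 2 lower (0.0245%), and the IntS12 line gave 3 (0.0367%), Tmtc2, ds and IntS12. Both of these comparisons use the same 3 parental libraries. Of the 11 pooled genes, 9 were called in the IntS6 line alone and 2 in the IntS12 line alone. Whether the lines differ was tested directly, line against line, which leaves the parental libraries out of the contrast. There 5 genes were called (0.0612%), 4 of them higher in the IntS6 line (0.0489%), of which IntS6 was the only one among the 11, and 239 genes had an unadjusted p under 0.05 (2.92%).

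The 4 other genes that separated the lines were IntS12 and 3 genes that were higher in the IntS6 line. Cyp304a1, a cytochrome P450 gene on chromosome 3R from 12963791 to 12965923, stood at 1.73, 2.0 and 2.24 CPM in the IntS6 line and 0.113, 0.267 and 0.0707 CPM in the IntS12 line, while parental cells had 0.0657, 0.189 and 0.218 CPM. The IntS12 line overlapped parental cells, and the line difference was 3.67 (SE 0.44, adjusted p = 0.000126). Cad88C, a cadherin gene on chromosome 3R from 14630478 to 14641776, had 16, 22 and 19 counts in the IntS6 line and 0, 0 and 3 in the IntS12 line, while parental cells had 0, 1 and 0. The depth-adjusted ratio of the lines was 20.4, with a 95% counting interval of 6.65 to 102 (adjusted p = 0.00889). CG1674, on chromosome 4 from 230730 to 245903, stood at 15.4, 17.0 and 16.1 CPM in the IntS6 line and 10.9, 10.9 and 10.3 CPM in the IntS12 line, while parental cells had 10.6, 9.15 and 11.2 CPM. Its line difference was 0.60 (SE 0.10, adjusted p = 0.0114). IntS12 differed by −0.99 (SE 0.14, adjusted p = 0.0011), being lower in the IntS6 line than in its own. The 4 genes called higher in the IntS6 line became 2 without IntS12 line library A or B or IntS6 line library B. The Cad88C call was lost without IntS12 line library A or B (adjusted p of 0.141 and 0.0976) or IntS6 line library B (0.069). The CG1674 call was lost without IntS12 line library A, B or C (0.099, 0.0924 and 0.133) or IntS6 line library B or C (0.129 and 0.0714).

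**Figure D3:**
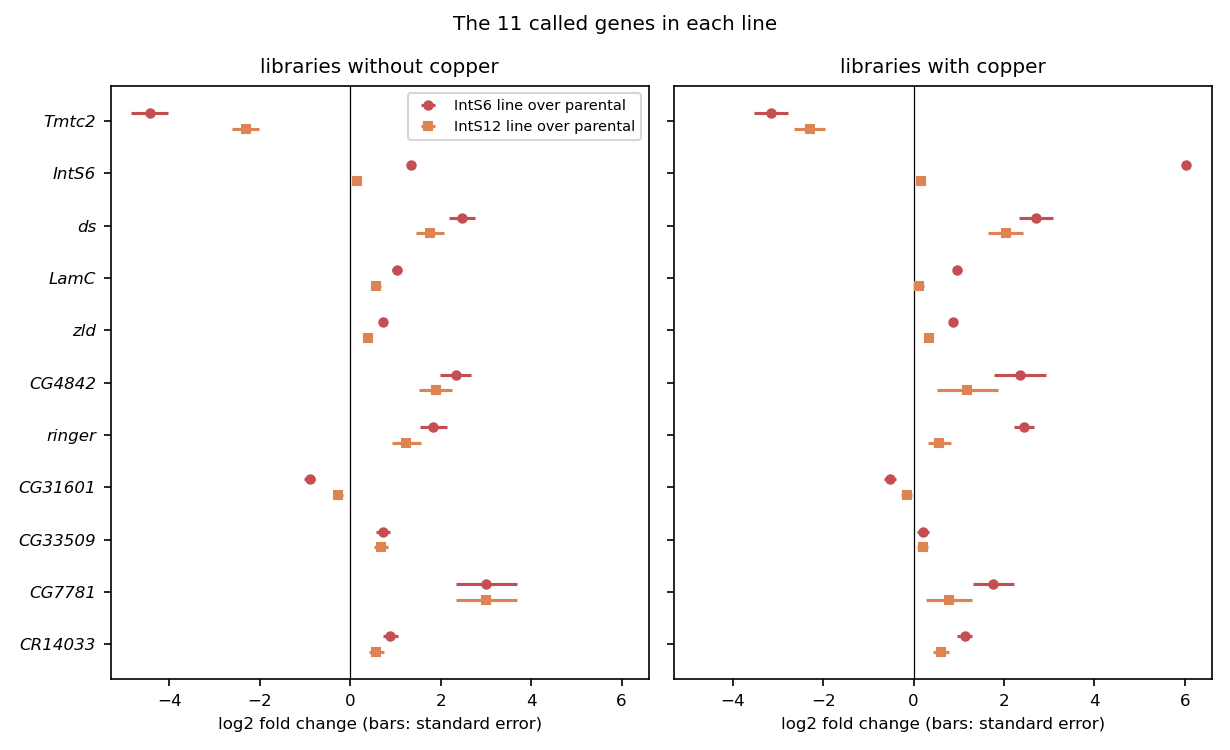
Log2 fold change over parental cells (horizontal axes, bars are SE) of the 11 called genes in the IntS6 line (red circles) and the IntS12 line (orange squares), in libraries without copper (left) and with copper (right). Without copper both lines lie on the same side of 0 for all 11 genes, and with copper IntS6 in its own line reaches 6.02.

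The libraries with copper gave a second reading of the line difference, from other libraries of the same populations, with the transgenes now induced. All 11 genes had the same direction there, and 7 were called, 6 of the 9 higher ones and 1 of the 2 lower ones. IntS6 is among the 6, and since its transgene was induced there, its call is no second reading of the line difference. The share of all tested genes that kept their direction was not computed. The background in that comparison was 188 calls (2.3%), 172 higher (2.1%) and 16 lower (0.196%), and leaving out parental library C with copper gave 105 higher calls. The lower calls numbered 29 without parental library B and 6 without parental library C, and 10 without IntS12 line library B or IntS6 line library C, all with copper. 5 of the 11 had all 6 line libraries on the same side of the parental ones in both conditions. Over all tested genes with copper, 2.04% had all 6 line libraries above and 1.24% had all 6 below the parental ones. With copper Tmtc2 stood at 0.0571, 0.427 and 0.42 CPM in the IntS6 line and 0.368, 0.474 and 0.744 CPM in the IntS12 line, against 3.27, 2.18 and 2.47 CPM in parental cells. It was again below parental cells in all 6 libraries (−2.73, SE 0.29, adjusted p = 7.38e-06). ds stood at 6.16, 5.06 and 6.72 CPM in the IntS6 line and 3.98, 3.93 and 3.38 CPM in the IntS12 line, against 0.569, 0.503 and 1.8 CPM in parental cells, again without overlap (2.37, SE 0.35, adjusted p = 0.000405). zld differed by 0.61 (SE 0.08, adjusted p = 0.000161), ringer by 1.5 (SE 0.22, adjusted p = 0.000405), LamC by 0.55 (SE 0.09, adjusted p = 0.00135) and CR14033 by 0.87 (SE 0.16, adjusted p = 0.00335). With both lines fitted as 1 group, all 6 genes called higher with copper missed the threshold, ds at an adjusted p of 0.0736 and IntS6, LamC, zld, ringer and CR14033 at 0.48 to 0.558.

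With copper the IntS12 line lay nearer to parental cells than the IntS6 line for all 11 genes, a difference between lines that was not tested with copper. Its LamC values of 13.8, 14.3 and 14.8 CPM overlapped the parental 11.7, 13.9 and 13.4 CPM (0.13, adjusted p = 1.0), while the IntS6 line stood at 25.1, 25.4 and 26.0 CPM (0.97, adjusted p = 1.3e-06). The IntS6 line with copper gave 728 calls against parental cells (8.91%) and the IntS12 line gave 2 (0.0245%). A pooled call with copper therefore does not by itself separate the line difference from the response of the IntS6 line to its induced transgene. In the 5 genes with all 6 line libraries on one side in both conditions, the IntS12 line with copper also lay outside the parental range. Tmtc2 and ds are among these 5. What set the levels with copper was not tested. 4 of the 11 genes missed the threshold with copper. These were CG4842 (1.77, SE 0.56, adjusted p = 0.117, and 0.0321 without parental library C with copper), CG7781 (1.27, SE 0.43, adjusted p = 0.148), CG31601 (−0.33, SE 0.11, adjusted p = 0.131) and CG33509 (0.21, SE 0.11, adjusted p = 0.456). A test of whether the pooled difference itself changed with copper called 13 genes (0.159%), with 5 to 8 calls without parental library A or B, IntS6 line library C or, of those with copper, IntS6 line library C, and IntS6 was the only one of the 11 among them (2.34, SE 0.09, adjusted p = 1.38e-13). For CG33509 the change was −0.49 (adjusted p = 0.542).

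The 8 genes just outside the threshold all had higher levels in the lines. They were Ptp52F, a receptor tyrosine phosphatase gene (0.96, adjusted p = 0.0595), M7BP (0.72, 0.0641), CG31999 (0.51, 0.0684), CG34334 (0.93, 0.0743), kek5, which encodes a transmembrane protein with leucine-rich repeats (0.44, 0.0853), CG9259 (0.62, 0.086), ppk13, a gene of the degenerin and epithelial sodium channel family (0.54, 0.086), and lncRNA:CR45177 (1.21, 0.0986). Just inside it were CR14033 and CG7781, both at 0.0485. Ptp52F averaged 1.66 ± 0.179 CPM in the lines (SD, n = 6) and 0.848 ± 0.184 CPM in parental cells (SD, n = 3), and kek5 averaged 31.3 ± 1.53 CPM in the lines and 23 ± 2.86 CPM in parental cells. In 7 of the 8, all line libraries were above all parental ones, CG31999 being the exception, where 1.16% of all tested genes were. The 8 were picked for a low p in these same libraries, so the lack of overlap was partly built into the choice. With copper all 8 again had higher levels, and 7 were called, with ppk13 missing the threshold (0.32, adjusted p = 0.16). Of all tested genes, 2.1% were called higher there. As above, a pooled call with copper does not by itself separate the line difference from the response of the IntS6 line to its induced transgene. Without copper the calls of the 8 genes depended on the setting. DESeq2 called CG31999 (adjusted p = 0.0146), kek5 (0.019) and ppk13 (0.0146). With 1 library left out, calls were gained by M7BP (0.0361 without parental library B), CG34334 (0.0472 without parental library A) and ppk13 (0.00907 without IntS12 line library A). With no filter all but Ptp52F were called, with only the libraries compared CG31999 (0.0201) and kek5 (0.0265), with both lines as 1 group kek5 (0.0213) and with library sizes alone ppk13 (0.0204).

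Of the called genes, 6 were among 1575 tested genes of 2L, 2 among 1499 of 3L, 2 among 1403 of X, 1 among 1606 of 2R and 0 among 1921 of 3R. No called gene was directly next to another among tested genes, but ringer and CG4842 lay 8.96 kb apart on 3L with 1 tested gene between them. That gene, Cpr72Ec, belongs by its name to the cuticular protein family. It stood at 1.45, 1.73 and 1.22 CPM in the IntS6 line and 1.52, 0.733 and 1.41 CPM in the IntS12 line, against 0.328, 0.442 and 0.508 CPM in parental cells. Its 6 line libraries were all above the parental ones, with a difference close to those of its neighbours that missed the threshold (1.65, SE 0.39, adjusted p = 0.125). The tested genes beyond this run, Tcs3 (−0.15, SE 0.18) and CG18814 (0.55, SE 0.42), were not called (adjusted p = 1.0 for both). On 2L, CG33509, ppk13 and CG9259 were 3 consecutive tested genes between 21084605 and 21090999, separated by 283 and 623 bases. Their differences were 0.70, 0.54 and 0.62, of which the first passed the threshold.

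Along the chromosomes, 7956 windows of 20 consecutive tested genes had medians mostly near 0, with 1st and 99th percentiles of −0.077 and 0.088. The highest median, 0.17, was on 2L from 8159832 to 8301079, from Rbsn-5 to Btk, and the next window not overlapping it had 0.13. It was picked for that median, so its values without copper are a description. In it 17 of 20 genes were above 0, 6 were higher at an unadjusted p under 0.05, where 1.79% of all tested genes were, and none was called. The window includes Piezo, a mechanosensitive ion channel gene that averaged 20.3 ± 4.28 CPM in the lines (SD, n = 6) and 15.8 ± 1.2 CPM in parental cells (SD, n = 3), with overlap (0.36, SE 0.14, adjusted p = 1.0). Snx6 averaged 93.5 ± 7.76 CPM in the lines and 80.1 ± 6.5 CPM in parental cells, without overlap (0.22, SE 0.07, adjusted p = 0.557). The median of these genes was 0.27 in the IntS6 line and 0.12 in the IntS12 line. With copper it was 0.23, with 17 of 20 genes above 0 and 4 called higher, where 2.1% of all tested genes were, which were Piezo, CG8353, Snx6 and CG8086. CG8353 and CG8086 had values below 0 without copper (−0.26 and −0.36). The lowest window, −0.19 on 3L from 830437 to 1199339, had 1 gene with an unadjusted p under 0.05 in the lower direction, and its median was −0.042 without parental library B. Whole arms had medians from −0.01 on 3R to 0.001 on 3L, with 0.048 for the 66 tested genes of chromosome 4 and −0.079 for the 15 tested mitochondrial genes. The mitochondrial median turned to 0.178 without parental library C and was −0.24 without parental library B.

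**Figure D4:**
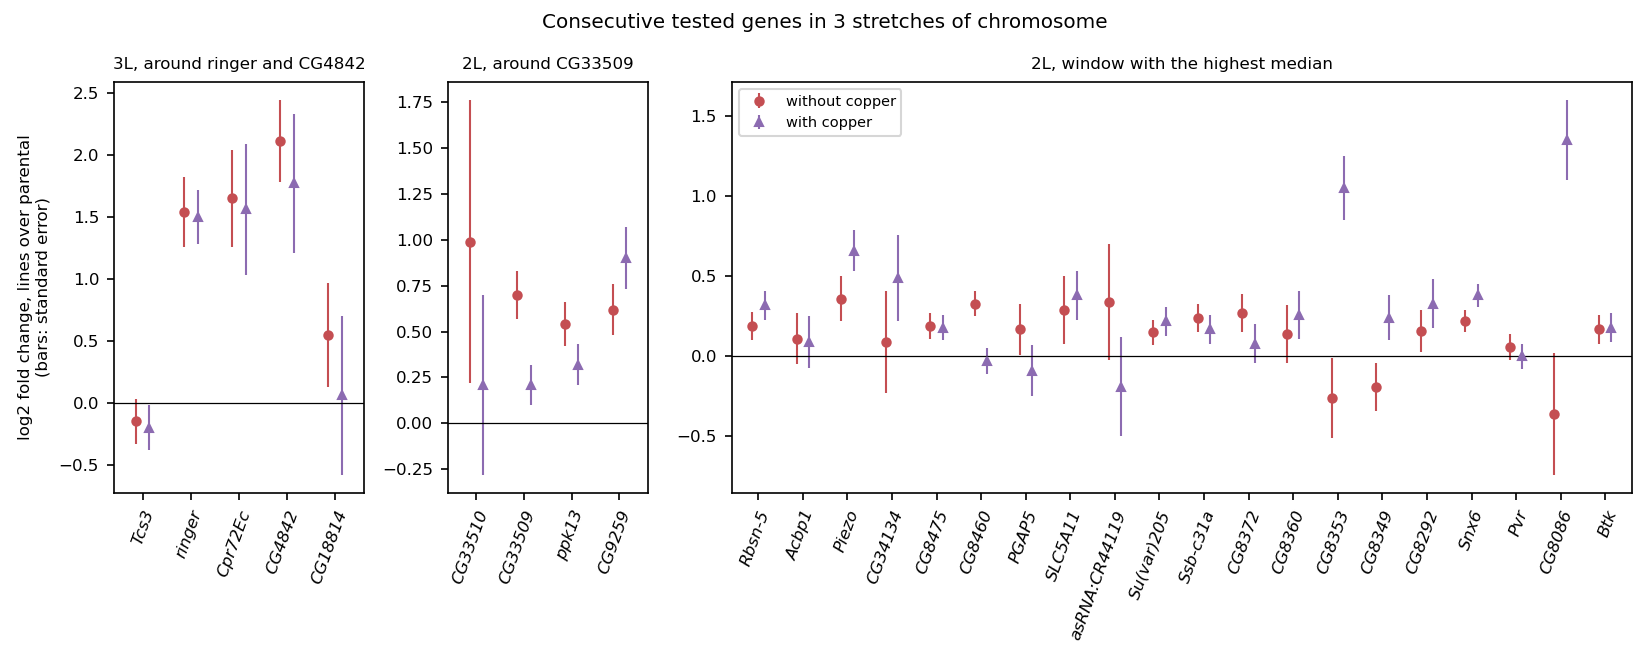
Log2 fold change of both lines over parental cells (vertical axes, each panel with its own scale, bars are SE) for consecutive tested genes in 3 stretches of chromosome, without copper (red circles) and with copper (purple triangles). Values without copper are 1.54, 1.65 and 2.11 for ringer, Cpr72Ec and CG4842, and 17 of 20 genes in the window on the right lie above 0.

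Gene groups were read from 33 lists of pathways, complexes and markers. No member was called in 29 of them, and 31 had a median within 0.1 of 0, beside a median of −0.003 over all tested genes. Of the 33 medians, 24 changed sign in at least 1 alternative. Across 16 of the lists, 32 symbols had no match and were not analysed here. The Integrator list had 15 tested members, of which IntS6 was the 1 called, and a median of 0.04, with IntS8 and IntS15 not analysed here. All 15 intervals lay within 2-fold, and asunder (asun), a subunit of the complex, averaged 5.71 ± 0.535 CPM in the lines (SD, n = 6) and 5.05 ± 1.18 CPM in parental cells (SD, n = 3), with overlap. Among 8 tested genes that were described earlier as attenuated by Integrator, 0 were called, with a median of 0.08. One of these, pst, averaged 27.3 ± 3.68 CPM in the lines and 26.6 ± 2.89 CPM in parental cells (0.04, SE 0.10). The 15 tested genes of metal handling also had 0 calls and a median of 0.01. MTF-1, the transcription factor that drives metallothionein genes, averaged 20.1 ± 1.32 CPM in the lines and 21.7 ± 1.7 CPM in parental cells, and MtnB and MtnC were at 0 in all 9 libraries.

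Lists that bear on drug handling and translation held no gene called in the pooled comparison. All 8 tested ABC drug exporter genes missed the threshold, with a median of 0.00 and a range of −0.24 to 0.10. MRP averaged 114 ± 2.58 CPM in the lines and 112 ± 5.04 CPM in parental cells. Mdr49, a P-glycoprotein gene of the fly, had 0.646 ± 0.197 CPM in the lines and 0.767 ± 0.189 CPM in parental cells (−0.24, SE 0.35, 95% interval −0.96 to 0.48), a wide interval at this depth. Of 62 tested cytochrome P450, glutathione transferase and UDP-glycosyltransferase genes, 0 were called and 3 were higher and 1 lower at an unadjusted p under 0.05, where 1.79% and 1.7% of all tested genes were. Among the 3 was Cyp304a1 (1.77, SE 0.56, adjusted p = 0.708), which was called line against line. It averaged 1.99 CPM in the IntS6 line, 0.15 CPM in the IntS12 line and 0.158 CPM in parental cells. Ugt36D1, with 0.415 ± 0.117 CPM in the lines and 0.201 ± 0.0147 CPM in parental cells, had no overlap but missed the threshold (1.00, SE 0.47, adjusted p = 1.0). None of the 87 tested cytosolic ribosomal protein genes, 43 translation factor genes or 10 genes of ribosome rescue was called, with medians of −0.02, −0.01 and −0.03. The translation factor gene eIF2D was below parental cells in all 6 libraries, at 5.95 ± 0.327 CPM in the lines and 7.72 ± 1.71 CPM in parental cells, but was not called (−0.38, SE 0.12, adjusted p = 0.655). The 32 tested proteasome genes had 0 calls and a median of −0.04.

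Adhesion and nuclear structure held the other called members. Of 31 tested cadherin, integrin and other adhesion genes, 1 was called, ds, and the median was 0.00. kirre, an immunoglobulin adhesion protein gene of myoblast fusion, averaged 6.63 ± 0.743 CPM in the lines and 8.39 ± 1.56 CPM in parental cells (−0.35, SE 0.14, adjusted p = 1.0), and mew, which encodes an integrin alpha chain, averaged 4.35 ± 0.395 CPM in the lines and 5.25 ± 0.683 CPM in parental cells (−0.26, SE 0.12, adjusted p = 1.0). In the Fat-Dachsous and Hippo list, ds was again the 1 called of 16 tested genes, and the median was 0.01. Its binding partner ft averaged 3.14 ± 0.424 CPM in the lines and 2.64 ± 0.287 CPM in parental cells, with overlap (0.25, SE 0.21, adjusted p = 1.0). The Hippo scaffold gene sav averaged 12.6 ± 1.4 CPM in the lines and 14.2 ± 2.18 CPM in parental cells (−0.18, SE 0.10, adjusted p = 1.0). LamC was the 1 called of 9 tested nuclear lamina genes, where the median was 0.05. Msp300, a nesprin that links nuclei to the cytoskeleton, averaged 852 ± 47.1 CPM in the lines and 790 ± 41 CPM in parental cells (0.11, SE 0.07). The 29 tested actin cytoskeleton genes had 0 calls, a median of −0.02 and intervals that all lay within 2-fold.

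Stress and growth lists had no call. The heat shock list had a median of −0.12 over 16 tested genes, which lay between −0.251 and −0.041 over the alternatives, and 4 of its members had an unadjusted p under 0.05 in the lower direction, all of them near-identical copies of Hsp70, the inducible chaperone. Of all tested genes, 1.7% were lower at that p. No member was called, while 1 was called without IntS6 line library A, 1 by DESeq2, 2 with the replicate block and 3 with no filter. Reads of such copies can be split between them, and a sum over the copies, added after the data were seen, stood at 14.8, 7.15 and 5.11 CPM in the IntS6 line and 3.73, 2.94 and 2.48 CPM in the IntS12 line, against 17.8, 7.45 and 8.53 CPM in parental cells. The IntS12 line was below parental cells without overlap, and the IntS6 line overlapped them. The pooled difference of the sum was −1.10 (SE 0.29, adjusted p = 0.251), and that of the IntS12 line was −1.87 (adjusted p = 0.0678). The endoplasmic reticulum stress list had 0 of 15 called and a median of −0.05. Its member Der-2, a derlin of protein quality control, was below parental cells in all 6 libraries, at 11.7 ± 0.615 CPM in the lines and 14.3 ± 0.326 CPM in parental cells (−0.29, SE 0.09, adjusted p = 0.557). Lists of oxidative stress, ATF4 targets, DNA damage and apoptosis, JNK and JAK-STAT signalling, innate immunity, small RNA pathways and the cell cycle had medians between −0.02 and 0.02. The 111 tested replication-dependent histone gene copies had a median of −0.04, which was −0.127 without parental library B and 0.149 without parental library C, and their 5 families, each summed, lay between −0.09 and −0.01.

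**Figure D5:**
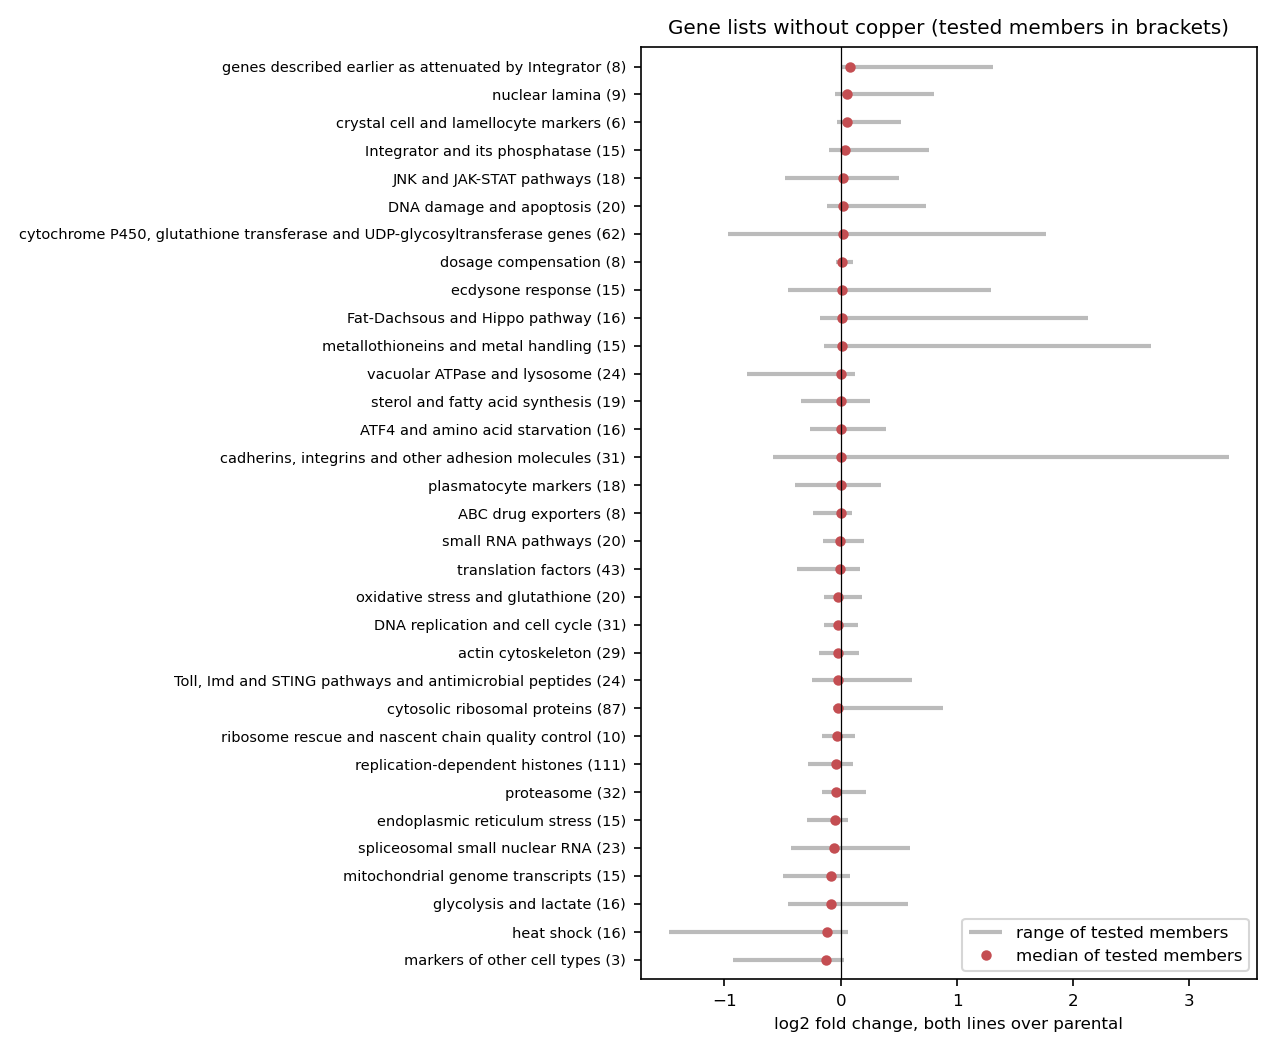
Median (red points) and range (grey bars) of the log2 fold change of both lines over parental cells for the tested members of 33 gene lists, with the number of tested members in brackets. The medians lie between −0.13 and 0.08, and wide bars come from single members such as Cad88C at 3.34 and Ctr1B at 2.67. Neither was called in the pooled comparison, and both rest on few counts. Cad88C averaged 0.465 CPM over the 9 libraries (SE 1.207) and Ctr1B 0.0302 CPM (SE 1.467).

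The label of the cells was read against blood cell markers. The 12 plasmatocyte (macrophage-like blood cell) markers summed to 240 to 273 CPM in the lines and to 243 to 267 CPM in parental cells, and none of the 10 tested was called. The GATA factor gene srp stood at 94.4 to 101 CPM in the lines and at 95.4 to 103 CPM in parental cells, and Hml, hemolectin, at 1.93 to 5.42 CPM in the lines and at 1.81 to 3.81 CPM in parental cells. NimC1 and NimC2 were near 0 in all 9 libraries. Crystal cell markers summed to 0.333 to 1.22 CPM in the lines and to 0.568 to 0.788 CPM in parental cells, and lamellocyte markers to 3.12 to 6.15 CPM in the lines and to 3.77 to 5.26 CPM in parental cells. The lamellocyte sum was mostly PPO3, at 2.92 to 5.92 CPM in the lines and 3.56 to 4.86 CPM in parental cells. Of the 4 fat body markers, 3 were at 0 in all 9 libraries. The neuronal marker elav stood at 13.8 to 21.6 CPM in the lines and at 15.7 to 21.2 CPM in parental cells. The other neuronal markers, nSyb, Syt1 and brp, did not exceed 0.339 CPM in any of the 9 libraries. For the plasmatocyte, crystal cell and lamellocyte sums and for elav, the parental range lay inside that of the lines.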

How the data were processed

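Ribosomal RNA-depleted, strand-specific RNA-seq of DL1 cells was deposited as 1 table of 17753 gene identifiers by 18 libraries. Per the submitters' processing notes, Trimmomatic 0.39 and featureCounts were used, with the builds dm6 and BDGP6. No source used here names the aligner or the strand setting of the counting. The values deposited by the authors are estimated counts per gene, since 13.4% of them are not whole numbers, and they were rounded to whole numbers here. Symbols and coordinates came from the BDGP6.54 annotation, which matched 17626 identifiers.

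Genes were filtered with edgeR 4.0.16 (filterByExpr, R 4.3.3), which left 8174, library sizes were scaled by TMM, and all 18 libraries entered 1 quasi-likelihood fit of 6 group means with 12 residual degrees of freedom. The main contrast was the mean of both uninduced lines minus parental DL1, and p-values were adjusted by Benjamini-Hochberg over all tested genes. Single lines, line against line and the libraries with copper were contrasts of the same fit. The procedure was tested on simulated data, in which both lines had the same changes, unlike the real lines. Of 50 genes changed at each step, it called 14 at 1.25-fold, 42 at 1.5-fold, 43 at 2-fold and 46 at 4-fold. It also called 3 unchanged genes. Chi-square tests of replicate pairs gave values per degree of freedom of 4.98 to 19.99, so no pair was merged. Replicate letters were not treated as pairs, since deviations of same-lettered libraries correlated under 0.1 in several pairs of the pooled comparisons. The IntS6 line with copper was the exception, with every pair over 0.1.

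The named genes were IntS6, IntS12 and up to 12 called genes per direction with the largest change, no overlap between groups and at least 5 CPM in the higher group. For line against line 5 per direction were taken, at most 4 members of a list, those of lowest p, and in the highest and lowest windows the called genes. The comparison, its members and the gene lists were chosen with earlier results of these data known. Alternatives were DESeq2 1.42.0, library sizes without TMM, no filter, ribosomal RNA genes left out, only the libraries compared, both lines as 1 group, a replicate block, each library left out, and summed families, the last chosen after seeing the data. Counting intervals cover counting error only.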

Additional observations from a re-analysis of the deposited data

Results flagged for a closer look

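The lines differed from each other in 5 genes by edgeR's quasi-likelihood test, line against line without copper. IntS6 differed by 1.19 (log2, IntS6 line over IntS12 line, adjusted p = 1.33e-09), with 69.9, 75.5 and 68.9 CPM in the IntS6 line and 31.3, 31.9 and 30.8 CPM in the IntS12 line. IntS12 differed by −0.99 (adjusted p = 0.0011), with 4.34, 4.52 and 3.8 CPM in the IntS6 line and 7.11, 8.53 and 9.69 CPM in the IntS12 line. Cyp304a1 differed by 3.67 (adjusted p = 0.000126), Cad88C by 4.18 (adjusted p = 0.00889) and CG1674 by 0.60 (adjusted p = 0.0114), all 3 higher in the IntS6 line, which stood above parental cells in each of its libraries for them. The pooled difference from parental cells also changed with copper for the genes carried by the transgenes, by 2.34 for IntS6 (adjusted p = 1.38e-13) and by 2.01 for IntS12 (adjusted p = 1.02e-06), each carried by its own line.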

How the results depend on the processing

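Genes called higher in the pooled lines (9 as reported) numbered 30 with no filter, 14 with the replicate block and 5 to 8 with 1 library left out. Genes called lower (2) numbered 1 with both lines as 1 group, 1 with library sizes alone, 19 with no filter, 4 with the replicate block and 1 to 3 with 1 library left out. Of the 49 genes called with no filter, 45 had also been tested with it, 9 are named for ribosomal RNA, and all 11 reported genes were among them. DESeq2 called 15, of which 10 were shared. Genes higher in both lines (1) numbered 2 by DESeq2, with library sizes alone, without ribosomal RNA genes or with the replicate block, 10 with no filter, 0 with only the libraries compared and 0 to 1 with 1 library left out. Genes lower in both lines (1) numbered 8 with no filter and 1 with any library left out. Line against line, higher calls (4) numbered 7 by DESeq2, 13 with no filter and 2 to 5 with 1 library left out, and lower calls (1) numbered 3 by DESeq2, 8 with no filter, 3 with only the libraries compared, 2 with the replicate block and 1 with any library left out. With copper, higher calls (172) numbered 0 with both lines as 1 group, 275 with no filter and 105 to 161 with 1 library left out, and lower calls (16) numbered 1 with both lines as 1 group, 4 with library sizes alone, 41 with no filter, 8 with only the libraries compared and 6 to 29 with 1 library left out. Changes of the pooled difference with copper (13) numbered 72 with no filter, 20 with the replicate block and 5 to 18 with 1 library left out. Fitting both lines as 1 group counts the difference between the lines as spread, and for the other settings the cause was not tested. The replicate letters were not treated as pairs in the pooled comparison, because not every same-lettered correlation passed 0.1. Whether the letters mark shared handling was not tested. Deviations of same-lettered IntS6 line and IntS12 line libraries correlated at 0.14, 0.07 and 0.04, each IntS6 line library best with its own letter. Deviations of same-lettered IntS6 line and parental libraries correlated at 0.14, 0.08 and 0.11 and those of IntS12 line and parental libraries at 0.19, −0.01 and 0, each IntS6 line library but not each IntS12 line library correlating best with its own letter. With copper these values were 0.21, 0.24 and 0.14 for the IntS6 line and 0.17, −0.05 and −0.11 for the IntS12 line, so only the IntS6 line with copper met the pairing criterion, and there the replicate block gave 893 calls against parental cells where 728 are reported. Among named genes, the replicate block added calls without copper for Hsp70Aa, Hsp70Ab, Ptp52F (adjusted p = 0.0436), M7BP (0.0433), CG31999 (0.0037) and ppk13 (0.00428), and with copper for CG31601 (0.0268). Over 597 alternative values of named genes, 64 lost their call, 25 gained one and 0 reversed. Depth limits genes under 1 CPM, 838 of those tested.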
